A study of Solanum lycopersicum with 10 samples.

Results

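The comparison of red ripe exocarp with leaves set the skin of ripe tomato fruits against the photosynthetic organ of the same cultivar, Ailsa Craig (written "Alisa Craig" in the sample labels). Its members were chosen by the tissue named in the sample labels and comprised 4 of the 10 libraries of the study and 2 of its 5 tissues. The exocarp came from fruits picked red ripe, 7 days after the breaker stage. The leaves were pooled from both fruit stages of the study, so the leaf libraries carry no stage of their own. The plants were wild type, and no treatment is described for them. Each tissue had 2 biological replicates, from which poly(A) mRNA was sequenced in bulk. The other 3 tissues, red ripe mesocarp and both layers of fruits picked mature green 30 days after anthesis, entered the estimate of the replicate spread. The purpose of the study was to find genes expressed preferentially in the exocarp, and low expression in leaves was a criterion of its choice.

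Ripening turns a photosynthetic green fruit into a soft, red and aromatic one. In tomato this is driven by a burst of ethylene made from methionine through ACC, together with transcription factors such as RIN, NOR and CNR. Chloroplasts lose chlorophyll and become chromoplasts that store lycopene, pectin in the cell wall is degraded, and bitter steroidal glycoalkaloids decline. The exocarp is in addition covered by a cuticle of cutin and wax and accumulates flavonoids, whereas leaves keep the machinery of light harvesting and carbon fixation.

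The deposited tables hold identifiers and no gene names. A total of 170 genes could be named and were grouped into 24 lists by function. Of these genes 169 passed the filter on low counts, and the anthocyanin regulator ANT1, the gene left out, had no count in the 4 libraries. The total counts lay between 32819863 and 40391408 per library. Replicate counts were further apart than sampling alone gives (chi-square per degree of freedom 19.1 in red ripe exocarp and 4.33 in leaves), so neither pair was a copy, and among genes of at least 10 CPM 66 of 10324 in the exocarp and 26 of 11583 in the leaves were over 2-fold apart. CPM denotes counts per 1000000 counts after TMM scaling in all values below, and values of 2 libraries are given in the order of replicates 1 and 2. In bulk RNA, fewer cells of a type and less RNA per cell cannot be told apart.

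The labels were checked against defining genes. PG2a, RIN and ACS2 were at or near 0 in leaves, with 0 and 0.168, 0.161 and 0.370, and 0.0642 and 0 CPM. Other ripening markers had a leaf level, with E4 at 14.8 and 13.3, E8 at 47.3 and 52.3 and PSY1 at 188 and 198 CPM. Leaf genes were low but not absent in the exocarp. The 12 light-harvesting genes summed to 437 and 507 CPM in the exocarp and to 57702 and 57687 CPM in the leaves, and 1 of them (an LHCB1 copy, Solyc02g070980.1) had no count in either exocarp library. Of the skin markers, the wax gene CER6 and the cuticle regulator CD2 had 953 and 711 CPM and 247 and 285 CPM in the red ripe exocarp, and the 3 cutin genes together had 4.47 and 4.30 CPM.

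Of the 22801 genes tested, 35.7% were higher and 40.2% were lower in the red ripe exocarp than in leaves (quasi-likelihood test of edgeR, p adjusted by Benjamini-Hochberg and under 0.05). Of the 169 named genes tested, 80 were higher, 74 were lower and 15 did not pass. A stricter call asked in addition that the log2 fold change reach 2 or -2 and that the libraries of the tissues not overlap. It took 10.1% of all genes as higher and 25.6% as lower, and 65 and 64 of the named genes. The background is thus high in both directions, and the counts below are to be read against it. The median log2 fold change of all genes tested was -0.11, and with DESeq2's size factors in place of TMM it was -0.26. Adjusted p-values named below come from the same edgeR test over all genes. The error given with a log2 fold change is its absolute value divided by the square root of the F statistic of that test. It only approximates a standard error. With 2 libraries against 2, an exact permutation test cannot pass 0.05, so none is given. For the genes with values below, the libraries of the 2 tissues did not overlap, except for EIL2, LOXD and UBI3. ANT1 and LIN5, also excepted, had no count in the 4 libraries. The share of all genes tested without overlap is not given, so the lack of overlap describes these genes and adds no evidence for them. The libraries are biological replicates by the study's account, but the labels do not say whether they came from separate plants.

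**Figure D1:**
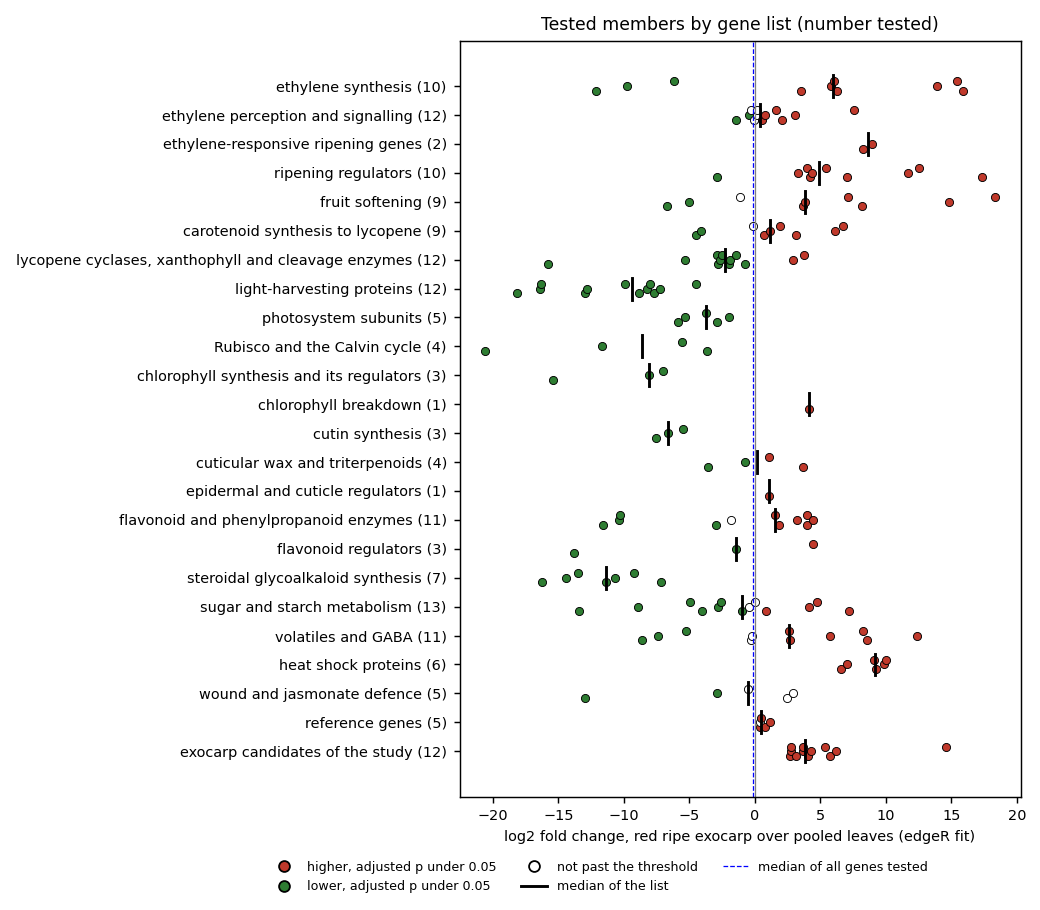
Log2 fold change of red ripe exocarp over pooled leaves (x axis) for each tested gene of the 24 lists (y axis, number tested in brackets), with red and green points for genes past an adjusted p of 0.05, open points for the others, and black bars for list medians. Light-harvesting and glycoalkaloid genes lie left of 0 without exception, heat shock genes and the study's candidates lie right of 0, and log2 values of genes without a count in a tissue depend on the fit and are no bounds.

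The organs had different leading transcripts. By FPKM, which is scaled by transcript length and so allows genes to be compared, the named genes leading the red ripe exocarp were PG2a (13967 ± 757 FPKM, mean ± SD, n = 2), E8 (7252 ± 594), E4 (6007 ± 159), the vacuolar invertase VI (5736 ± 50.5) and PSY1 (5652 ± 408). They held ranks 2, 4, 5, 6 and 7 among all genes of that tissue. The named genes leading the leaves were the Rubisco subunit RBCS2A (8142 ± 543 FPKM), the LHCB1 copy Solyc03g005760.1 (7911 ± 69.1), LHCA2 (6420.2 ± 59.02), the LHCB2 copy Solyc07g047850.3 (6356 ± 129) and the LHCB1 copy Solyc02g070940.1 (5523 ± 37.04), at ranks 2, 3, 4, 5 and 8. Among the named genes, the ripe skin was thus led by those of pectin breakdown, ethylene response, sugar cleavage and carotenoid synthesis. The leaf was led by those of carbon fixation and light capture. Against the red ripe mesocarp PG2a, E8, VI and PSY1 did not pass, and E4 was higher by a log2 fold change of 0.91 ± 0.29.

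Ethylene synthesis genes were divided between the organs. Of the 10 genes tested, 7 were higher in the red ripe exocarp and 3 were lower, and all 10 passed the stricter call. ACC synthases, which make the ethylene precursor ACC, were on the fruit side: ACS2, a main ACC synthase of ripening fruit, had 397 and 738 CPM in the exocarp and 2 and 0 counts in the leaves, a ratio of 17386 (95% counting interval 4812 to 143563). ACS4, the other main ripening ACC synthase, had 188 and 110.4 CPM in the exocarp and no count in either leaf library, at least 1511-fold higher against a floor of 3 counts in each leaf library. ACS2 was lower in exocarp replicate 1 than in replicate 2, and ACS4 was higher there, but both replicates lay far above the leaves. ACS1A had 528 and 446 CPM in the exocarp and 7.55 and 9.56 in leaves (log2 fold change 5.83 ± 0.41, adjusted p = 2.51e-06). ACS3 passed with only 3 and 15 counts in the exocarp and 0 in the leaves, and lost its call in 3 of the 4 fits that left out a library.

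ACC oxidases, which turn ACC into ethylene, split by isozyme. ACO1, known as a main isozyme of ripe fruit, had 4572 and 5040.1 CPM in the exocarp and 72.8 and 72.7 CPM in leaves (log2 fold change 6.05 ± 0.50, adjusted p = 6.90e-06). ACO5 had 249 and 164 CPM in the exocarp and no count in leaves, at least 2091-fold higher, and ACO3 had 85.9 and 106 against 8.96 and 7.47 CPM. Other isozymes were higher in leaves. ACO4 had 2 and 2 counts in the exocarp libraries and 275 and 281 CPM in leaves, a leaf-to-exocarp ratio of 4829.7 (95% counting interval 1886 to 17728). ACO6 had 8.54 and 8.29 CPM in the exocarp and 624 and 613 CPM in leaves (log2 fold change -6.20 ± 0.12, adjusted p = 5.54e-09). Both were also expressed in the red ripe mesocarp, ACO4 with 73.8 and 78.8 CPM and ACO6 with 137 and 147 CPM. In each of these 5 genes the 2 exocarp libraries and the 2 leaf libraries did not overlap, which is a description and adds no evidence.

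Genes that sense and relay ethylene showed smaller fold changes in most members. Of 12 tested, 6 were higher, 2 were lower and 4 did not pass, with a median log2 fold change of 0.36. The largest difference was in the receptor gene ETR4, known to increase in ripening fruit, with 1440.1 and 1650.1 CPM in the exocarp and 7.93 and 8.08 CPM in leaves (log2 fold change 7.59 ± 0.18, adjusted p = 8.40e-09). The receptors ETR6 (26.1 and 34.4 against 3.73 and 3.3996 CPM) and ETR7 (90.9 and 91.8 against 19.2 and 23.1 CPM) were also higher, whereas ETR2 was lower, with 11.9 and 10.2 CPM in the exocarp and 29.998 and 29.9 CPM in leaves. Receptors repress the response until ethylene binds. Below them, the kinase gene CTR1 was higher by a log2 fold change of 1.64 ± 0.09 and EIN2, the membrane protein that passes the signal on, was lower (-0.46 ± 0.08). Of the EIL transcription factors at the end of the pathway, EIL1, EIL2 and EIL3, with log2 fold changes of 0.15 ± 0.12, -0.06 ± 0.07 and 0.17 ± 0.12, did not pass, and EIL4 was higher by 0.77 ± 0.12. The receptor ETR5, at -0.28 ± 0.16, did not pass either, although of 12 alternative fits or thresholds ETR5 passed as lower in 3 and EIL2 in 2, and EIL3 passed as higher in 1.

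The ethylene-responsive ripening genes E4, of the methionine sulfoxide reductase family, and E8, a dioxygenase gene, were both higher. E4 had 6895 and 7233 CPM in the exocarp and 14.8 and 13.3 CPM in leaves (log2 fold change 8.97 ± 0.41, adjusted p = 1.97e-07). E8 had 14367 and 16302 CPM in the exocarp against 47.3 and 52.3 CPM in leaves (log2 fold change 8.27 ± 0.22, adjusted p = 1.49e-08), so that the leaf level, though 308-fold lower, was not 0. In the mature green exocarp E8 had 0.231 and 0.263 CPM, below the leaves.

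Among 10 ripening regulators, 9 were higher in the red ripe exocarp and 1 was lower, with a median log2 fold change of 4.87. RIN, a MADS-box factor of ripening, had 1499 and 1588 CPM in the exocarp and 0.161 and 0.370 CPM in leaves (log2 fold change 12.50 ± 0.68, adjusted p = 5.50e-07). NOR, a NAC factor, had 571 and 561 CPM in the exocarp and no count in leaves, at least 5735-fold higher. TAGL1, a MADS-box factor of fleshy fruit expansion and ripening, had 297 and 282 CPM and 5 and 0 counts in the leaf libraries. RIN, NOR and TAGL1 were thus nearly confined to the fruit side among these 4 libraries. AP2a, which restrains ethylene production during ripening, had 601 and 566 CPM in the exocarp and 3.79 and 4.88 CPM in leaves (log2 fold change 7.07 ± 0.28).

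Other regulators had a basal leaf level. FUL1 and FUL2, MADS-box partners of RIN, were higher by log2 fold changes of 4.21 ± 0.11 and 5.41 ± 0.10, with 134 and 137 CPM of FUL1 and 5.24 and 5.18 CPM of FUL2 in leaves. The SBP-box gene CNR had 575 and 445 CPM in the exocarp and 27.9 and 35.3 CPM in leaves, the DNA demethylase DML2, which removes methylation from ripening genes, had 1371 and 1392 against 148 and 137 CPM, and the AGAMOUS homologue TAG1 had 121 and 179 against 7.87 and 7.001 CPM. HB1, an HD-Zip gene reported to activate ACO1, went the other way, with 33.2 and 29.5 CPM in the exocarp and 233 and 230.0 CPM in leaves (log2 fold change -2.88 ± 0.08, adjusted p = 1.84e-08).

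**Figure D2:**
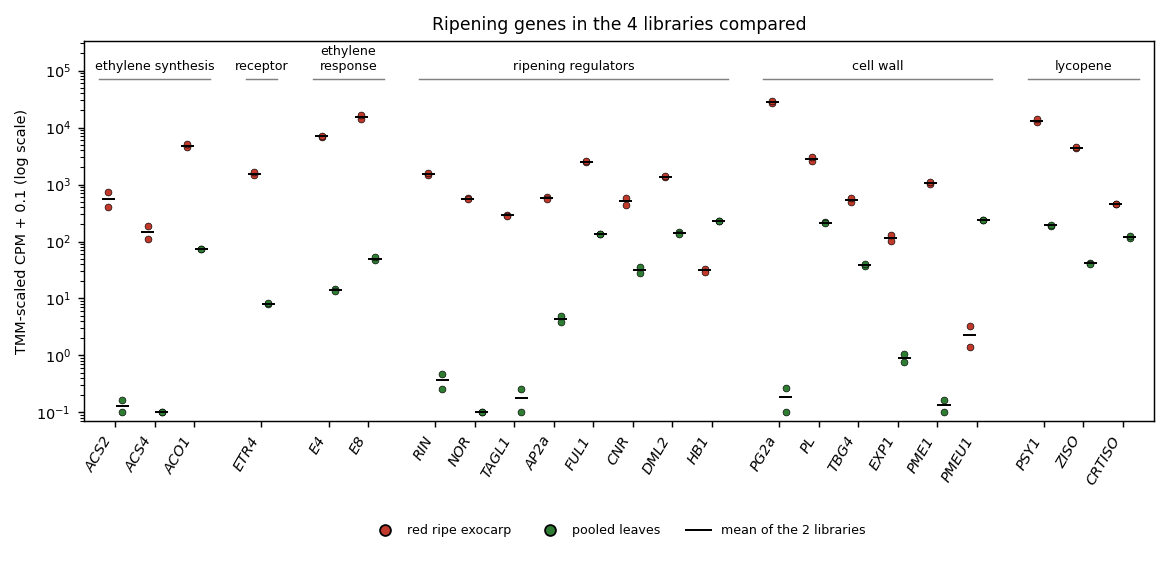
TMM-scaled CPM plus 0.1 on a log axis for 23 ripening genes, grouped by role, in the 2 red ripe exocarp libraries (red) and the 2 leaf libraries (green), with bars at the means. HB1 and PMEU1 are the genes with higher leaf values, and points at the bottom of the axis have no count.

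Genes of fruit softening were mostly higher in the ripe skin than in leaves. Of 9 tested, 6 were higher, 2 were lower and 1 did not pass. Against the red ripe mesocarp, 1 was higher and 4 were lower in the exocarp, where 18.1% and 19.4% of all genes tested were. PG2a, the ripening polygalacturonase that cleaves pectin, had 27161 and 29633 CPM in the exocarp, while the leaf libraries had 0 and 5 counts. Its log2 fold change was 18.34 ± 1.85 (adjusted p = 2.57e-05), and the size of the change rested on these few leaf counts. Its error takes in the spread within all tissues, and the mature green mesocarp had 154 and 2628 counts. The pectin methylesterase gene PME1, which prepares pectin for polygalacturonase, had 1017 and 1086 CPM in the exocarp and 0 and 2 counts in leaves, a ratio of 32008 (95% counting interval 8860.3 to 264302), and PME2 had 196 and 183 against 0.450 and 0.841 CPM. EXP1, an expansin that loosens the wall, had 100.1 and 128 CPM in the exocarp and 0.964 and 0.673 CPM in leaves (log2 fold change 7.11 ± 0.46, adjusted p = 1.56e-06).

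The pectate lyase gene PL and the beta-galactosidase gene TBG4 had a clear leaf level and were still higher in the ripe skin, by log2 fold changes of 3.70 ± 0.16 and 3.82 ± 0.15. PMEU1, the pectin methylesterase expressed throughout the plant, was lower, with 1.29 and 3.15 CPM in the exocarp and 238 and 235 CPM in leaves (log2 fold change -6.72 ± 0.30). Mature green exocarp held 1545 and 1544 CPM of it. The endoglucanase CEL1 was lower in the exocarp as well. CEL2 had 8.77 and 14.2 CPM in the exocarp and 25.1 and 24.6 CPM in leaves. It did not pass the test (adjusted p = 0.0841), but was called lower in 2 of the 12 alternatives.

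Carotenoid enzymes up to lycopene were mostly higher in the ripe skin, and those beyond it mostly lower. Of 9 enzymes up to lycopene, 6 were higher in the red ripe exocarp, 2 were lower and 1 did not pass, whereas of 12 enzymes that cyclize lycopene, form and convert xanthophylls or cleave carotenoids 10 were lower and 2 were higher. The medians of the log2 fold changes were 1.13 and -2.25. PSY1, the chromoplast phytoene synthase that commits carbon to carotenoids, had 12394 and 13870.1 CPM in the exocarp and 188 and 198 CPM in leaves (log2 fold change 6.09 ± 0.21, adjusted p = 5.03e-08). Its leaf counterpart PSY2 showed the opposite, with 14.3 and 15.3 CPM in the exocarp and 338 and 333 CPM in leaves (-4.50 ± 0.10, adjusted p = 7.22e-09). ZISO, the isomerase between the desaturases, had 4288 and 4532 CPM in the exocarp and 42.01 and 40.9 CPM in leaves (6.73 ± 0.26, adjusted p = 8.63e-08).

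The same division held for the supply of geranylgeranyl diphosphate, the substrate of phytoene synthase. GGPPS2 had 193 and 183 CPM in the exocarp and 22.03 and 21.3 CPM in leaves, and GGPPS1 had 0.235 and 0.309 against 4.69 and 4.68 CPM. The desaturases of the pathway differed little: PDS was higher by a log2 fold change of 0.73 ± 0.06, and ZDS, with 309 and 343 CPM in the exocarp and 351 and 363 CPM in leaves, did not pass (adjusted p = 0.196) but was called lower in 2 of the 12 alternatives, both with DESeq2's size factors. DXS1, at the entry of the plastid isoprenoid pathway, and CRTISO, the last isomerase before lycopene, were higher by 1.13 ± 0.16 and 1.93 ± 0.07.

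Beyond lycopene, LCYE, the cyclase that opens the branch to lutein, had no count in the exocarp and 196 and 202 CPM in leaves, at least 2303-fold lower in the exocarp. ZEP, the zeaxanthin epoxidase of the xanthophyll cycle, had 34.6 and 45.4 CPM in the exocarp and 1619.8 and 1627 CPM in leaves (log2 fold change -5.34 ± 0.19, adjusted p = 6.30e-08). The beta-cyclases LCYB1 and CYCB were lower, with log2 fold changes of -2.84 ± 0.20 and -1.98 ± 0.27. CYCB, known as the chromoplast form, had 0.883 and 0.590 CPM in the exocarp, but 15.3 and 18.2 CPM in the red ripe mesocarp. The beta-carotene hydroxylases again split, with CRTR-B2 at 68.8 and 79.2 CPM in the exocarp and 5.59 and 5.65 CPM in leaves (3.72 ± 0.33) and CRTR-B1 at 52.5 and 54.8 against 309 and 307 CPM (-2.52 ± 0.21).

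NCED1, which cleaves carotenoids on the way to abscisic acid, was the other higher gene of this list. It had 121 and 350.0 CPM in the exocarp and 32.5 and 31.2 CPM in leaves (log2 fold change 2.89 ± 0.44, adjusted p = 3.43e-04), and exocarp replicate 2 was the higher of the pair. The cleavage dioxygenase CCD1B, which releases volatile apocarotenoids, was lower, at 401 and 439 CPM in the exocarp and 704 and 722 CPM in leaves.

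Photosynthesis genes were lower in the red ripe exocarp without exception among those tested. All 12 light-harvesting genes were lower, with log2 fold changes from -18.14 to -4.52 and a median of -9.39, as were 5 of 5 photosystem subunits (median -3.75), 4 of 4 genes of Rubisco and the Calvin cycle (-8.64) and the 3 genes of the chlorophyll list, the enzyme gene POR and the regulators GLK1 and GLK2 (-8.12). Light-harvesting proteins bind the antenna chlorophyll. Of the copies of LHCB1, the main antenna protein of photosystem II, Solyc02g070980.1 had no count in the exocarp and 988 and 991 CPM in leaves, at least 11465-fold lower. Solyc02g070970.1 had 2 and 0 counts in the exocarp and 2811 and 2754 CPM in leaves, and Solyc02g070950.1 had 0.147 and 0.365 against 2097 and 2085 CPM. The copies of LHCB1 and LHCB2 are near identical in sequence and the way shared reads were counted is not given in the sources used here, so the division of reads among the copies is uncertain.

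Other antenna genes were lower as well. LHCA3, an antenna protein of photosystem I, had 4.62 and 5.82 CPM in the exocarp and 5071 and 5089 CPM in leaves. LHCA4, of the same antenna, had 0.353 and 0.843 against 4282 and 4233 CPM. LHCB5, of the inner antenna of photosystem II, differed least of the list, with 317 and 336 CPM in the exocarp against 7573 and 7443 CPM in leaves (log2 fold change -4.52 ± 0.15, adjusted p = 3.63e-08). The LHCB2 copy Solyc12g006140.2 had 3 and 0 counts in the exocarp and 3818 and 3890.1 CPM in leaves.

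Photosystem subunits had smaller fold changes. PSBQ, a protein of the oxygen-evolving side of photosystem II, had 31.05 and 53.8 CPM in the exocarp against 2532 and 2534 CPM in leaves. PSBO and PSBP, of the same complex, were lower as well, PSBO with 212 and 264 against 3189.8 and 3203 CPM and PSBP with 532 and 630.4 against 4247 and 4253 CPM. PSAD, of photosystem I, had 43.1 and 55.2 against 1992 and 1936 CPM (log2 fold change -5.32 ± 0.18). PSBS, the sensor of excess light, differed least of the list, with 523 and 647 CPM in the exocarp and 2278 and 2313 CPM in leaves (-1.97 ± 0.17, adjusted p = 1.11e-05), and it was the photosystem gene with the largest excess over the red ripe mesocarp, where it had 37.98 and 33.3 CPM.

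Among the Rubisco small subunits, RBCS3B had the largest fall of all named genes, with no count in the exocarp and 5955 and 4926 CPM in leaves, at least 63048-fold lower. RBCS1 had 0.854 and 1.43 CPM in the exocarp and 3736 and 3863 CPM in leaves (log2 fold change -11.69 ± 0.26, adjusted p = 7.75e-09). RBCS2A was still expressed in the ripe skin, at 125 and 241 CPM against 8386 and 9200.3 CPM (-5.59 ± 0.31), with the higher value in exocarp replicate 2. These subunits are close copies as well. SBPASE, an enzyme of the Calvin cycle regeneration phase, kept 133 and 167 CPM in the exocarp against 1846 and 1849 CPM in leaves (-3.62 ± 0.13).

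Of the chlorophyll genes, POR was lower and SGR1 higher in the red ripe exocarp. POR, which reduces protochlorophyllide, had 1.74 and 1.04 CPM in the exocarp and 382 and 388 CPM in leaves (log2 fold change -8.12 ± 0.61, adjusted p = 3.78e-06). GLK1 and GLK2 are transcription factors of chloroplast development, GLK2 being the form known to act in fruit. GLK1 had no count in the exocarp and 152 and 150.1 CPM in leaves, at least 1748-fold lower, and GLK2 had 4 and 12 counts in the exocarp and 27.6 and 32.1 CPM in leaves. SGR1, the STAY-GREEN protein that starts chlorophyll breakdown, was higher, with 676 and 794 CPM in the exocarp and 39.9 and 42.01 CPM in leaves (4.17 ± 0.15, adjusted p = 5.46e-08).

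Steroidal glycoalkaloid genes were far lower in the red ripe exocarp. All 7 GAME genes tested passed as lower, with a median log2 fold change of -11.36, or -10.71 with genes without exocarp counts set at their bound. These genes turn cholesterol into tomatine and its relatives. GAME11, a dioxygenase of the early steps, had 0.412 and 0.225 CPM in the exocarp and 3662 and 3652 CPM in leaves (log2 fold change -13.48 ± 0.28, adjusted p = 5.68e-09). GAME4, the cytochrome P450 at the branch to glycoalkaloids, had no count in the exocarp and 259.9 and 260.2 CPM in leaves, at least 3013-fold lower. GAME6, another cytochrome P450, had 0 and 8 counts in the exocarp and 310.4 and 312 CPM in leaves.

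The glycosyltransferase GAME17 was likewise without a count in the exocarp, against 75.2 and 77.8 CPM in leaves, at least 886-fold lower. The other members, GAME1, GAME12 and GAME18, had at most 0.927 CPM in an exocarp library. In sum the 7 genes had 2.33 and 1.85 CPM in the exocarp and 5756 and 5775 CPM in leaves. In the mature green exocarp GAME11 had 143 and 118 CPM and GAME4 31.4 and 16.4 CPM, above the red ripe exocarp and below the leaves.

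**Figure D3:**
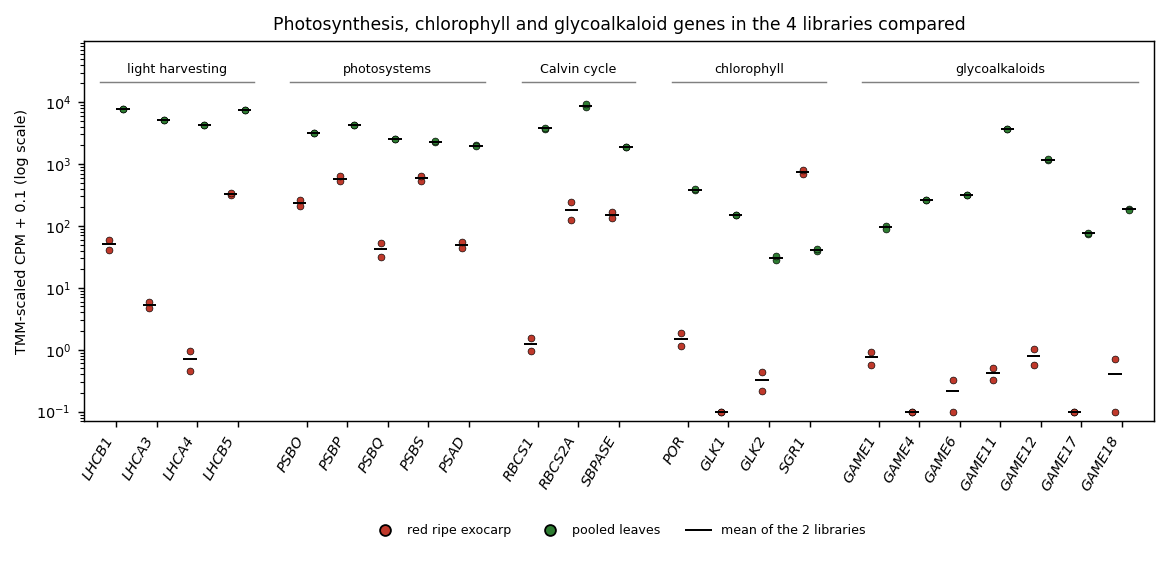
TMM-scaled CPM plus 0.1 on a log axis for genes of light harvesting (LHCB1 is Solyc03g005760.1), photosystems, the Calvin cycle, chlorophyll and glycoalkaloids in red ripe exocarp (red) and leaves (green), 2 libraries each, with bars at the means. SGR1 is the gene shown with higher exocarp values, and points at the bottom of the axis have no count.

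The skin of the ripe fruit was compared with leaves in its cuticle and flavonoid genes, which both organs use in their epidermis. All 3 cutin genes tested were lower in the red ripe exocarp. GPAT6, an acyltransferase that builds cutin monomers, had 2.74 and 2.08 CPM in the exocarp and 231 and 238 CPM in leaves (log2 fold change -6.61 ± 0.28, adjusted p = 1.49e-07). CD1, the cutin synthase that polymerizes them, had 1.06 and 1.21 against 49.04 and 52.2 CPM (-5.47 ± 0.18), and the cytochrome P450 gene CYP77A, of a family that hydroxylates cutin monomers in Arabidopsis, had 0.677 and 1.01 against 163 and 157 CPM (-7.56 ± 0.26).

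The cutin genes had a different standing against the other fruit tissues. Against the red ripe mesocarp, where 18.1% of all genes tested were higher and 19.4% were lower in the red ripe exocarp, all 3 were higher, with log2 fold changes of 5.23 ± 0.47 for CD1, 5.78 ± 0.64 for GPAT6 and 3.12 ± 0.58 for CYP77A. Against the mature green exocarp, where 29.7% were higher and 32.2% were lower, all 3 were lower, and CD1 had 2732 and 2259 CPM there. The low values of the red ripe exocarp therefore lay between the flesh of the same stage and both the green skin and the leaves. These 3 comparisons share the red ripe exocarp libraries.

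Wax and triterpenoid genes did not follow the cutin genes. Of 4 tested, 2 were higher and 2 were lower than in leaves. All 4 were higher than in the red ripe mesocarp, as were 18.1% of all genes tested. CER6, the elongase of very-long-chain fatty acids for wax, had 953 and 711 CPM in the exocarp and 394 and 393 CPM in leaves (log2 fold change 1.08 ± 0.19, adjusted p = 7.89e-04), with 8.39 and 10.04 CPM in the red ripe mesocarp. WSD1, named after the wax ester synthase family of Arabidopsis, had 11.7 and 13.2 against 0.867 and 1.04 CPM (3.70 ± 0.37). The triterpenoid synthases TTS1 and TTS2, which make cuticular amyrins, were lower, TTS1 with 68.5 and 54.4 against 101 and 109.6 CPM (-0.78 ± 0.14) and TTS2 with 11.98 and 4.13 against 91.5 and 97.01 CPM (-3.55 ± 0.40).

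CD2, the HD-Zip regulator of the fruit cuticle, was higher than in leaves, with 247 and 285 CPM in the exocarp and 119 and 126 CPM in leaves (log2 fold change 1.12 ± 0.09, adjusted p = 5.01e-06). It stood further above the red ripe mesocarp, where it had 25.7 and 24.7 CPM (3.40 ± 0.10). The wax list differed between the exocarp replicates. It summed to 1046 CPM in replicate 1 and to 783 CPM in replicate 2, against 587 and 600 CPM in leaves. Most of the exocarp sums came from CER6 (953 and 711 CPM). The cutin list, at 4.47 and 4.30 CPM, differed little between these replicates.

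Flavonoid genes were divided, with the chalcone synthases, F3H and F3'H higher and CHI1, DFR and F3'5'H lower in the red ripe exocarp. Of 11 enzymes of the phenylpropanoid and flavonoid pathways, 6 were higher, 4 were lower and 1 did not pass. Chalcone synthase, which forms the flavonoid skeleton, is encoded by CHS1, with 1242 and 1085 CPM in the exocarp and 69.3 and 76.5 CPM in leaves (log2 fold change 3.996 ± 0.36, adjusted p = 1.23e-05), and by CHS2, with 3433 and 2731 against 189 and 199 CPM (3.99 ± 0.20). The flavanone hydroxylase gene F3H had 1298 and 1023 CPM in the exocarp and 52.7 and 53.6 CPM in leaves (4.45 ± 0.15, adjusted p = 3.84e-08). F3'H, which sets the hydroxylation of the flavonol quercetin, was higher by 3.24 ± 0.27.

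Phenylalanine ammonia-lyase (PAL) supplies the pathway, and 2 of its 3 named genes, Solyc09g007910.4 and Solyc09g007920.4, were higher by log2 fold changes of 1.53 ± 0.30 and 1.83 ± 0.24, while Solyc05g056170.3 was lower (-2.96 ± 0.44). CHI1, the chalcone isomerase of the next step, had 0 and 3 counts in the exocarp and 60.03 and 61.3 CPM in leaves, a leaf-to-exocarp ratio of 1406 (95% counting interval 481 to 6821). By FPKM, the exocarp level of CHI1 was 0.0240 ± 0.0339 (mean ± SD, n = 2), between CHS1 at 664 ± 68.2 before it and F3H at 726 ± 127 after it in the pathway.

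The late genes of anthocyanin synthesis were low in the exocarp. DFR, which commits the pathway to anthocyanins, had no count in the exocarp and 11.9 and 9.53 CPM in leaves, at least 124-fold lower, although its adjusted p was 0.0164 and it did not pass without either exocarp library. F3'5'H, which leads to delphinidin, had no count in the exocarp and 3.79 and 4.64 CPM in leaves, and it failed in each of the 4 fits that left out a library. ANS, the next enzyme, had 1.795 and 2.67 CPM in the exocarp and 8.41 and 7.203 CPM in leaves without passing (adjusted p = 0.116), although it was called lower in 3 of the 12 alternatives.

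Of the 3 regulators tested, 1 was higher and 2 were lower. MYB12, the activator of flavonol synthesis in tomato peel, had 185 and 160.4 CPM in the exocarp and 8.54 and 7.47 CPM in leaves (log2 fold change 4.43 ± 0.24, adjusted p = 5.09e-07), and 2.08 and 2.2005 CPM in the red ripe mesocarp. AN2, an anthocyanin MYB, had no count in the exocarp and 47.7 and 51.9 CPM in leaves, at least 577-fold lower. JAF13, a bHLH partner of such MYBs, was lower, with a log2 fold change of -1.45 ± 0.08, and ANT1 was not detected in the 4 libraries, where 3 counts in a library correspond to between 0.0843 and 0.101 CPM.

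**Figure D4:**
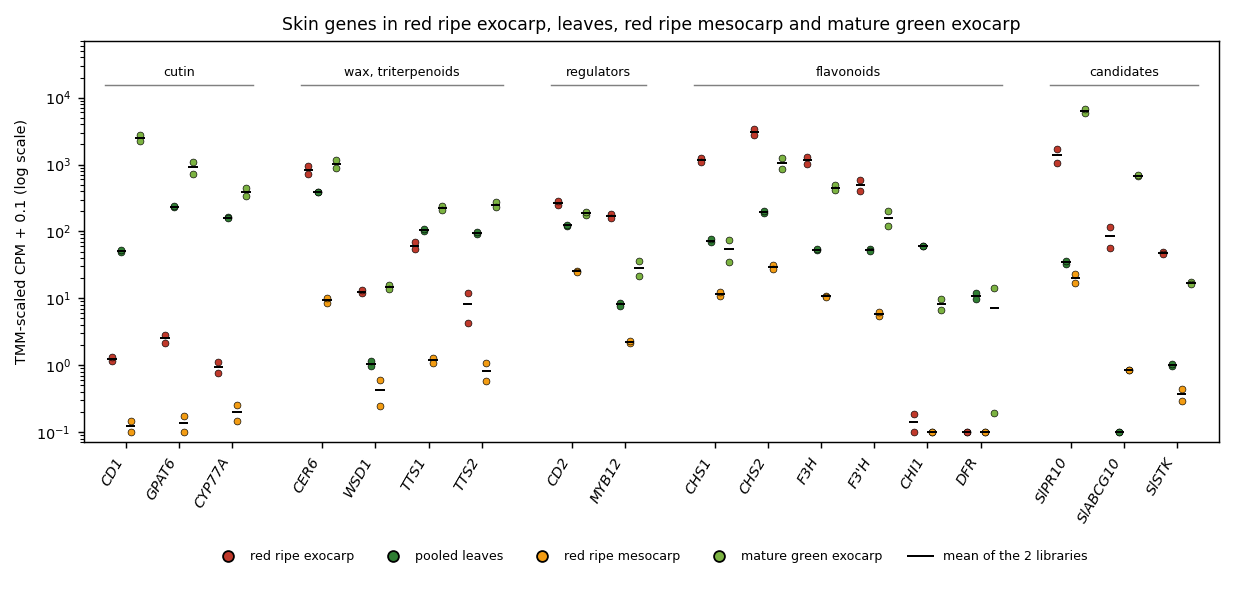
TMM-scaled CPM plus 0.1 on a log axis for 18 skin genes in red ripe exocarp, leaves, red ripe mesocarp and mature green exocarp, 2 libraries each, with bars at the means. The 3 cutin genes are lower in red ripe exocarp than in leaves but above the mesocarp, CER6, CD2, MYB12 and the chalcone synthases are higher than in leaves, and points at the bottom of the axis have no count.

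Of 13 sugar and starch genes tested, 4 were higher, 7 were lower and 2 did not pass. VI, the vacuolar invertase that cleaves sucrose into the hexoses of ripe fruit, had 16312 and 16279 CPM in the exocarp and 112 and 113 CPM in leaves (log2 fold change 7.18 ± 0.29, adjusted p = 1.02e-07). The sucrose synthase SUS1 had 133 and 116 against 4.91 and 4.58 CPM (4.71 ± 0.15), and SUS3 was higher by 4.15 ± 0.22. SPS1, a sucrose phosphate synthase, was higher by 0.88 ± 0.10. Of the cell wall invertases, LIN8 had no count in the exocarp and 35.04 and 40.7 CPM in leaves, at least 439-fold lower, LIN6 had 7.06 and 10.2 against 10.8 and 13.3 CPM without passing (it was called lower in 1 of the 12 alternatives), and LIN5 had no count in the 4 libraries, although the red ripe mesocarp had 29.7 and 38.1 CPM.

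The genes of sucrose transport and starch described next were higher in leaves. SUT1, the transporter that loads sucrose into the phloem, had 42.5 and 49.8 CPM in the exocarp and 1414 and 1443 CPM in leaves (log2 fold change -4.95 ± 0.27, adjusted p = 6.10e-07), and SUT2 and SUT4 had log2 fold changes of -0.995 ± 0.12 and -2.56 ± 0.22. AGPL1, a large subunit of the enzyme that makes ADP-glucose for starch, had 9 and 0 counts in the exocarp and 65.1 and 62.8 CPM in leaves. The granule-bound starch synthase GBSS1 had 53.1 and 75.5 against 1063 and 1029.5 CPM (-4.02 ± 0.16).

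Of 11 genes for aroma volatiles and GABA, 6 were higher, 3 were lower and 2 did not pass. ADH2, the alcohol dehydrogenase that interconverts fruit aldehydes and alcohols, had 2116 and 2409 CPM in the exocarp and 0.385 and 0.438 CPM in leaves (log2 fold change 12.41 ± 0.23, adjusted p = 4.17e-09). The lipoxygenase LOXC, which feeds fatty acid volatiles, had 2247 and 3061 against 49.1 and 50.5 CPM (5.74 ± 0.72, adjusted p = 1.06e-04). LOXA had 13.5 and 52.6 CPM in the exocarp, higher in replicate 2, and 2 and 3 counts in leaves. Other fatty acid genes were near balance, as LOXD, with 28.7 and 52.9 CPM in the exocarp and 47.2 and 46.8 CPM in leaves, and the hydroperoxide lyase HPL, with 222 and 310.3 against 321 and 343 CPM, did not pass, although HPL was called lower in 6 of the 12 alternatives.

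Glutamate decarboxylases, which make GABA, were divided by isozyme. GAD1 had 221 and 244 CPM in the exocarp and 0.835 and 0.640 CPM in leaves (log2 fold change 8.29 ± 0.19, adjusted p = 7.58e-09). GAD2 had 3.27 and 4.41 CPM in the exocarp and 651 and 638 CPM in leaves (-7.39 ± 0.18, adjusted p = 1.00e-08), and GAD3 had 19 and 3 counts in the exocarp and 120.0 and 125 CPM in leaves. GABA-T1, the transaminase that breaks GABA down, was higher in the exocarp, with 339 and 349 against 55.4 and 49.8 CPM.

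**Figure D5:**
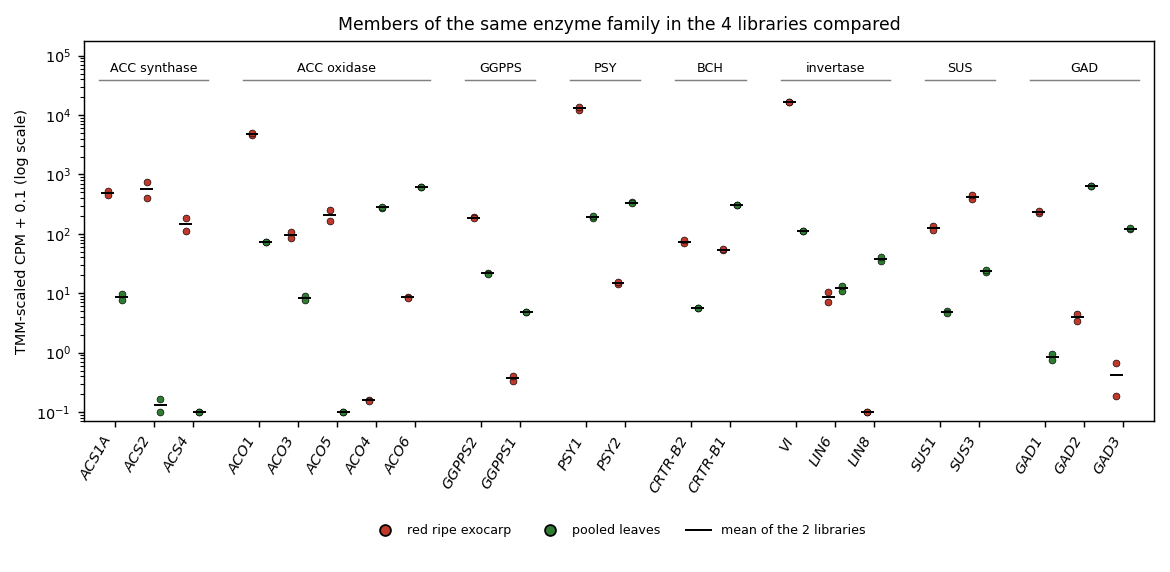
TMM-scaled CPM plus 0.1 on a log axis for members of 8 enzyme families in red ripe exocarp (red) and leaves (green), 2 libraries each, with bars at the means; GGPPS, PSY, BCH, SUS and GAD stand for geranylgeranyl diphosphate synthase, phytoene synthase, beta-carotene hydroxylase, sucrose synthase and glutamate decarboxylase. ACO1, GGPPS2, PSY1, CRTR-B2, VI and GAD1 are higher in the exocarp and ACO4, GGPPS1, PSY2, CRTR-B1, LIN8 and GAD2 in leaves.

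Small heat shock protein genes, which code for chaperones known to accumulate in ripening tomato fruit, were all higher. The 6 genes tested had a median log2 fold change of 9.19, or 8.10 with the gene without leaf counts set at its bound. The class II gene HSP17-CII had 211 and 258 CPM in the exocarp and 13 and 2 counts in leaves. Of the class I genes, Solyc06g076560.2 had 715 and 755 CPM in the exocarp and 1.35 and 1.04 CPM in leaves (log2 fold change 9.26 ± 0.14, adjusted p = 2.25e-09), and Solyc06g076570.4 had 1582 and 1670.4 against 11.1 and 13.2 CPM. HSP21, the plastid form, had 156 and 197 CPM in the exocarp and 15 and 4 counts in leaves. Class I genes are close copies. Against the red ripe mesocarp 5 of the 6 genes were lower in the exocarp, as were 19.4% of all genes tested.

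Of 5 wound and jasmonate genes, 2 were lower and 3 did not pass. TD2, a threonine deaminase of defence against herbivores, had no count in the exocarp and 28.9 and 26.6 CPM in leaves, at least 321-fold lower, and the arginase ARG2 was lower, with a log2 fold change of -2.91 ± 0.62. The jasmonate synthesis genes AOC (52.1 and 40.9 against 67.5 and 64.2 CPM) and AOS1 (3.56 and 6.49 against 0.867 and 0.471 CPM) and the aminopeptidase LAPA (18 and 14 against 0 and 5 counts) did not pass. Of the 12 alternatives, AOC was called lower in 5, AOS1 was called higher in 4 and LAPA in 1.

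Of the genes commonly used as references, 4 were higher in the exocarp, with log2 fold changes of 0.38 ± 0.08 for ACTIN, 0.49 ± 0.10 for CAC, 0.76 ± 0.10 for GAPDH and 1.18 ± 0.09 for EF1A, a translation elongation factor. The fifth gene listed, UBI3 (Solyc01g056940.4), had at most 0.640 CPM in the 4 libraries, little for a ubiquitin gene, and its pairing of name and identifier is uncertain. ACTIN, the reference of the study's RT-qPCR, had 541 and 508 CPM in the exocarp and 399 and 408 CPM in leaves (adjusted p = 0.00269). The 4 genes were also higher with DESeq2's size factors and with total counts as the scaling.

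The 12 candidates that the study picked as exocarp genes were all higher than in leaves, between log2 fold changes of 2.72 and 14.61, with a median of 3.87. The study chose them on the libraries of the series by a low level in leaves and by a level in the exocarp of both stages well above the mesocarp, so their direction is not independent evidence and is given as a description. SlPR10, a pathogenesis-related protein gene whose promoter the study went on to use, had 1707 and 1049 CPM in the exocarp and 32.9 and 35.5 CPM in leaves. SlABCG10, an ABC transporter gene, had 116 and 55.8 CPM and no count in leaves, at least 869-fold higher. SlSTK had 49.3 and 45.97 CPM in the exocarp and 0.867 and 0.942 CPM in leaves, and the kinesin gene SlKIN5D had 36.1 and 30.3 against 1.799 and 1.62 CPM. For SlPR10 and SlABCG10 exocarp replicate 1 was the higher of the pair.

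The largest changes of the whole table lay partly outside the named genes. The largest rises among genes with at least 10 CPM were those of Solyc08g066240.3, with 6086 and 6015 CPM in the exocarp and no count in leaves, and of Solyc08g005770.3, with 6225 and 5746 CPM and no count in leaves. They were at least 61322-fold and 60661-fold higher. The largest falls were those of RBCS3B and of Solyc02g085933.1, with no count in the exocarp and 3376 and 3242 CPM in leaves, at least 38347-fold lower. The first 2 and the last of these identifiers are not paired with a name in the sources used here. No count in either exocarp library was found for 2224 of the genes tested, and no count in either leaf library for 696.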

How the data were processed

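Libraries from poly(A) mRNA were sequenced by a company, and the authors deposited raw counts per gene. The FPKM table deposited by the authors holds these counts scaled by transcript length and sequencing depth. The submitters' processing notes name HISAT2; the genome build, annotation, counting tool, strand setting and handling of shared reads are not given in the sources used here. Both tables list 35288 genes, and 0 columns lacked a sample.

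Counts of all 10 libraries were filtered with filterByExpr, scaled by TMM and fitted by tissue in edgeR 4.0.16 (R 4.3.3), with a quasi-likelihood F test on 5 residual degrees of freedom (common biological coefficient of variation 0.153) and Benjamini-Hochberg adjustment over 22801 genes. The fit was run on simulated counts in which few genes differed and all genes had the same spread. This setting is unlike these data, so the run does not check the scaling or the pooled spread used here. Folds against a tissue without a count are bounds at 3 counts per library, and ratios to few counts carry exact 95% intervals. Both cover counting error only. Tables and plots used Python 3.11.15, numpy 2.4.6, pandas 2.3.3, matplotlib 3.10.9 and scipy 1.17.1.

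Of 240 listed identifiers, 13 are named by the paper, 8 were absent from the tables and 219 carry names from tomato publications. Such a name, or an alias set for it, had to match a symbol or synonym of a RefSeq gene (assembly SLM_r2.1) on the same chromosome. The gene also had to lie in a fitting order along the chromosome. Its span had to hold the transcript length implied by count and FPKM (the table gives no coding length). These rules left 157. Through aliases, E8 was matched to the RefSeq gene ACO3, and ACO3 to EFE. No listed seed storage gene passed. Members and lists were chosen with earlier results of these data known. By rule, each list gives its 4 largest called changes among genes reaching 10 CPM in either tissue, up to 2 called members against the list median, and the members that did not pass where these number up to 3. The rule also takes the 2 largest rises and falls of all genes and the 5 most abundant named genes per tissue. Chosen after their values were seen were ACS1A, ACS3, ACO1, ACO3, ETR5, the EIL genes, CNR, FUL1, FUL2, DML2, TAG1, PL, TBG4, CEL1, DXS1, GGPPS1, PDS, CRTISO, LCYB1, CYCB, CRTR-B1, CCD1B, LHCB5, LHCA3, LHCA4, PSBS, the PAL genes, CHS2, F3'H, F3'5'H, ANT1, GAME1, GAME12, GAME18, SUS3, SPS1, SUT2, SUT4, GBSS1, LOXC, GABA-T1 and ARG2.

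Alternatives were DESeq2 1.42.0 size factors or total counts as scaling, the DESeq2 Wald test, no filter, the 4 libraries alone, a replicate block, an adjusted p under 0.01, each of the 4 libraries left out in turn (its partner is then assumed to vary like the other tissues) and, chosen after seeing the data, a fit without the mature green exocarp. RT-qPCR and transgenic experiments were not analysed here.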

Additional observations from a re-analysis of the deposited data

How the results depend on the processing

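The count of 17304 differing genes lay between 14980 and 17864 under the 12 alternatives. Leaving out a library gave 15259 to 16280, the DESeq2 Wald test 16497 and the fit without the mature green exocarp, chosen after seeing the data, 17864. Replicate numbers are shared by the tissues, but no source states that they pair samples, and deviations of same-numbered libraries were nearly uncorrelated (r = -0.036 over 18797 genes); with the replicate block 16912 genes differed. Of the named genes, 15 lost or gained a call at least once, and no called gene changed sign. ACS3, DFR, F3'5'H and SAMT1 lost theirs in a fit without a library or at an adjusted p under 0.01, and SAMT1 also in the DESeq2 Wald test. LIN6 gained one with the replicate block alone. Values near 0 changed sign: the median of the wax list (0.15) was -0.0041 with DESeq2's size factors and in the Wald test and ranged from -0.0165 to 0.3662 without a library, EIL1 was -0.0033 in both DESeq2 settings, and without a library EIL2 ranged from -0.1229 to 0.0453, LOXD from -0.6757 to 0.2049 and UBI3 from -0.0804 to 1.2575 (log2 fold changes). The cause was not tested. With 2 libraries per tissue, 5 residual degrees of freedom are shared by all tissues. A gene with unequal spread between tissues may therefore have a p-value that is too small or too large. ANS had 462 and 25 counts and CEL2 70 and 0 in the mature green exocarp, and both passed as lower in the fit without it.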
